A study of Mus musculus with 108 samples.

Results

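The 5′ external transcribed spacer (5′ETS) and internal transcribed spacer 1 (ITS1) of the ribosomal RNA precursor were counted in single mouse oocytes that lacked Exosc10 and in controls. They are 2 of the 7 segments in the deposited rRNA count files, chosen by position, and named here by their order along it. The 5′ETS runs from base 1 to 4007 of the precursor and ITS1 from base 5878 to 6877, on either side of the 18S segment at 4008 to 5877. The rRNA files cover 22 of the 108 samples of the series, each 1 oocyte, made from total RNA without ribosome depletion. Both spacers were counted in all 22 oocytes.

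Oocytes were taken at the germinal vesicle (GV) stage, when the oocyte is fully grown and arrested in meiotic prophase, or as MII eggs, arrested at the second meiotic metaphase. Genotypes were control and conditional knockout (cKO), in which Exosc10 is deleted in oocytes alone, per the labels. The GV groups held 7 cKO oocytes from 2 females, V1126 and V1131, and 8 control oocytes from 2 females, V1132 and V1133. The MII groups held 4 cKO eggs from 2 females, V1166 and V1167, and 3 control eggs that all came from 1 female, V1145. MII eggs were dissected from oviducts, per the labels. The Cre driver, the strain and the age of the females were not given in the sources used here. All oocytes of a female share 1 genotype, so the p-values below treat oocytes of 1 female as independent and measure the spread between oocytes.

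RNA polymerase I transcribes 18S, 5.8S and 28S rRNA as 1 precursor in which spacers separate the mature RNAs. The 5′ETS is removed in the small-subunit processome, which is built around the U3 small nucleolar RNA, and ITS1 is cut between 18S and 5.8S, a step in which RNase MRP takes part. The nuclear RNA exosome with its helicase MTREX takes part in degrading freed spacer fragments. EXOSC10 is the 3′ to 5′ exonuclease bound to the nuclear exosome. A fully grown oocyte stores ribosomes, and its nucleolus is largely inactive in rRNA synthesis.

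The mm10 genome carries a partial rDNA copy on chromosome 17 that shows what these segments look like in sequence. There the GENCODE gene Gm26917 (chr17:39843013-39846341, plus strand, 3329 bases, 69.1% GC) ends 12 bases before the RefSeq 18S copy Rn18s-rs5 (chr17:39846354-39848202), in the position of the 5′ETS. Gm42418 (chr17:39846958-39848788, plus strand) has 1245 bases inside that 18S copy, at 55.0% GC, and 586 bases past it in the position of ITS1, at 71.2% GC. The sequences below are given because read counts on these 2 genes, and on the RNA subunit of RNase MRP (Rmrp), are set beside the spacers further on. The Gm26917 stretch covers chr17:39846142-39846341, and capitals mark its last 20 bases. The stretch at the 18S copy end covers chr17:39848163-39848402, and capitals mark the last 40 bases of the annotated 18S copy. In Rmrp (chr4:43492783-43493063, minus strand) capitals mark the 271 bases that 2 annotated Rmrp gene IDs share. The deposited counts differ between these IDs in every oocyte, but how shared reads were assigned was not given in the sources used here, so the IDs are not independent measurements. All are 5′ to 3′ as DNA from GRCm38 (mm10), and their match to the rDNA reference used for the rRNA files was not checked.
Gm26917, 3′ end: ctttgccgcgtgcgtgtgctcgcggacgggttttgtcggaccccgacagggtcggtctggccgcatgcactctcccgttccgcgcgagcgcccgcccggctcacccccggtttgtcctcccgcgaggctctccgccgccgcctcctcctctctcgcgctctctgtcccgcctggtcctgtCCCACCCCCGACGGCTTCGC
18S copy end and ITS1 start: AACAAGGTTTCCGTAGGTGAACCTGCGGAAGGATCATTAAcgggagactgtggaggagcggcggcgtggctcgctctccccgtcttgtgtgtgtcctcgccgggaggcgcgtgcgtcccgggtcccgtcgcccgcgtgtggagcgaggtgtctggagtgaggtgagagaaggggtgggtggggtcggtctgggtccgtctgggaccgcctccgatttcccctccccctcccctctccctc
Rmrp: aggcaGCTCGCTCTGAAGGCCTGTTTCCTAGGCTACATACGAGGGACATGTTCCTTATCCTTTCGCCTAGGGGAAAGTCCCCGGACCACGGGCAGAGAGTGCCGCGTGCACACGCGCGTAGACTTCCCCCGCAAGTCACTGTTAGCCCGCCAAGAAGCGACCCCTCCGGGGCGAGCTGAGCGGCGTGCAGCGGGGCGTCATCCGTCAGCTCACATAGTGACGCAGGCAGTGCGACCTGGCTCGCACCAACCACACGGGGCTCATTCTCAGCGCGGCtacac

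The segment counts of an oocyte summed to 482609 to 1473517. The library check on the targeted gene came from RiboMinus libraries (rRNA-depleted total RNA) that carry the same female and oocyte numbers. Whether those and the rRNA files came from the same lysate was not given in the sources used here. Exosc10 lay between 0.8 and 8.3 CPM (RiboMinus counts scaled to 1000000 per library) in the 7 GV cKO oocytes and between 94.0 and 161.6 CPM in the 8 controls. At MII it lay between 0.4 and 3.6 CPM in cKO and between 84.9 and 106.3 CPM in control eggs. Exosc10 fell by 5.25 (SE 0.38) on the log2 scale at GV and by 5.66 (SE 0.54) at MII (edgeR, adjusted p = 2.41e-07 and 9.93e-05). The summed level of 8 oocyte markers was 5596 to 12602 CPM in GV cKO, 4883 to 9603 in GV control, 6855 to 9648 in MII cKO and 10586 to 11345 in MII control oocytes. At GV 3 of the 8 rose (edgeR), against 37.6% of all genes called: the zona pellucida genes Zp2 by 0.68 and Zp3 by 0.89 and the growth factor gene Bmp15 by 0.47. At MII, where edgeR called 23.7% of all genes, the growth factor gene Gdf9 rose by 0.99, and the maternal-effect genes Ooep and Dppa3 fell by 1.9 and 1.43. The summed level of 10 granulosa and cumulus cell markers was 13.7 to 61.8 CPM in GV cKO, 23.9 to 53.0 in GV control, 10.9 to 29.2 in MII cKO and 21.1 to 32.7 in MII control oocytes. Of these, Ptx3 was at 0 in every GV cKO and MII oocyte and Hsd17b1 in every MII egg, and Amh, Foxl2 and Lhcgr were also at 0 in the MII controls. At GV, edgeR called 1 of the 5 tested, or 20%, Cyp19a1, the aromatase gene, which fell by 1.22. The part of these marker lists in the spacer results was not tested.

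At GV, both spacers were far higher relative to 18S in cKO oocytes than in controls. The 5′ETS had a median of 347 counts per 10000 18S counts in cKO oocytes against 3.33 in controls. ITS1 had a median of 28.4 against 0.538. The mature RNAs differed far less: the 28S to 18S count ratio was 1.88 to 3.09 in cKO and 1.70 to 2.77 in control oocytes.

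The 4 GV cKO oocytes of female V1131 had 368, 347, 390 and 362 5′ETS counts per 10000 18S counts. Those of female V1126 had 27.8, 4.15 and 183. The GV controls of female V1132 had 2.02, 10.9, 1.95 and 0.825, and those of female V1133 had 17.3, 1.25, 5.50 and 4.65. Thus 6 of 7 cKO oocytes lay above every control, and oocyte 3 of V1126 lay within the control range. The spread inside the cKO group was 94.1-fold and split by female, with V1131 (mean 367 ± 17.9 SD, n = 4) tight and V1126 wide (mean 71.8 ± 97.4 SD, n = 3). On raw counts the 5′ETS reached 12281 in the highest cKO oocyte and 97 in the lowest, against 40 to 486 in controls. Wilson 95% intervals, which cover counting error only, ran from 383 to 397 per 10000 for the highest cKO oocyte and from 3.40 to 5.06 for the lowest.

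ITS1 was also higher in cKO oocytes, at a lower level. The GV cKO oocytes had 34.5, 24.4, 28.4 and 47.1 ITS1 counts per 10000 18S counts in V1131, and 9.13, 1.07 and 30.6 in V1126. Controls had 0.212, 4.46, 0.325 and 0.103 in V1132, and 4.76, 0.320, 0.751 and 1.17 in V1133. Again 6 of 7 cKO oocytes lay above every control, with the same exception, oocyte 3 of V1126. Unlike for the 5′ETS, the cKO females overlapped, since oocyte 4 of V1126 lay above 2 oocytes of V1131. Exosc10 was at 4.2 CPM in oocyte 3 of V1126, inside the range of the other cKO oocytes. It was highest of the cKO oocytes, at 8.3 CPM, in oocyte 2 of V1126. Exosc10 had r = -0.45 with the 5′ETS and r = -0.41 with ITS1 in GV cKO oocytes. In GV controls these were -0.49 and -0.50. The part of remaining Exosc10 in the spacer levels was not tested. ITS1 rests on few reads in controls, from 5 to 163 per oocyte, and the 95% interval of the lowest control was 0.044 to 0.241 per 10000.

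**Figure D1:**
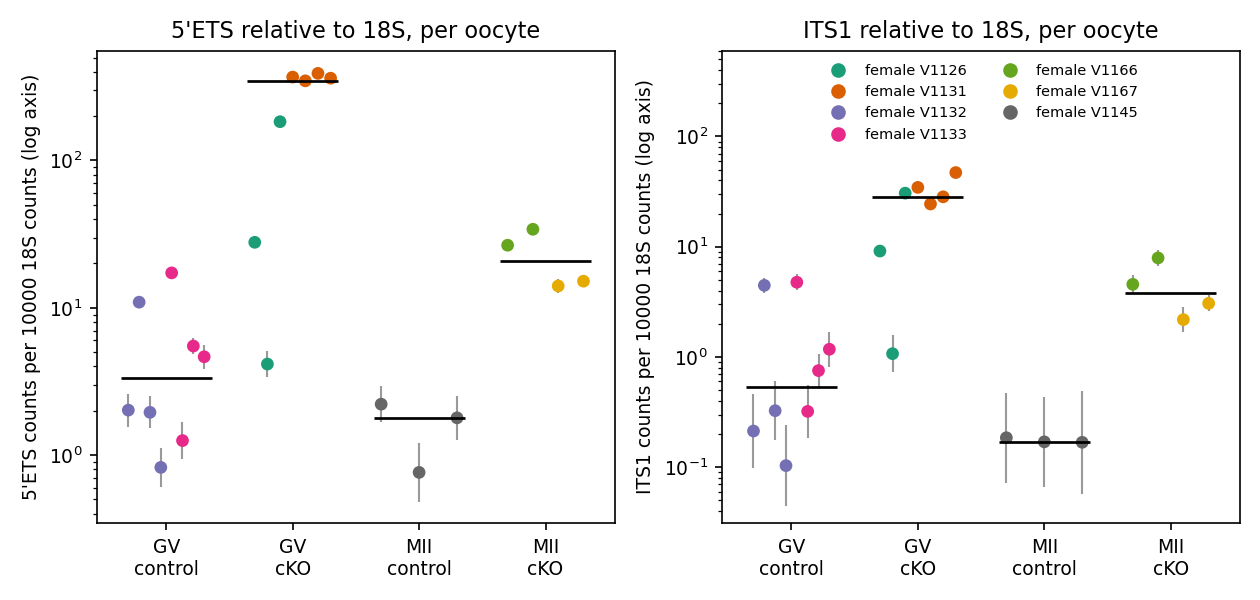
Counts of the 5′ETS (left) and ITS1 (right) per 10000 18S counts on a log axis. Each point is 1 oocyte coloured by female with its 95% Wilson interval, and the bar is the group median. The GV cKO oocytes of V1131 sit between 347 and 390 for the 5′ETS, and 1 oocyte of V1126 lies at 4.15, among the controls.

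On the log2 scale, with 1 added to each count, the GV genotype difference was 5.12 (SE 1.10) for the 5′ETS, a 34.9-fold ratio of geometric means. The exact permutation test, two-sided over 7 and 8 oocytes, gave p = 0.00186 (adjusted p = 0.0112 by Benjamini-Hochberg over 12 tests). For ITS1 the difference was 4.52 (SE 0.98), a 22.9-fold ratio (exact permutation p = 0.00155, adjusted p = 0.0112). An edgeR quasi-likelihood test on the same counts, with 18S as the library size, gave 5.44 and 4.05 (adjusted p = 0.000213 and 0.0018). Leaving out a female changed the calls in part. Without V1131 the differences were 3.00 and 3.22, and the adjusted p of the exact test was 0.218 for both. Without V1132 they were 4.63 and 3.89, and without V1133 5.61 and 5.14, with adjusted exact p of 0.135 and 0.0727. Without V1126 they were 6.72 and 5.49 (adjusted exact p = 0.0242). EdgeR called both spacers without V1132, V1133 or V1126. Without V1131 it called the 5′ETS (3.69, adjusted p = 0.02) but not ITS1 (3.17, adjusted p = 0.0606). With female means as replicates, 2 against 2, the differences were 4.86 and 4.36, and the smallest p such a test allows is 0.333.

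At MII the spacers differed in the same direction, at lower levels. The 4 cKO eggs had 26.6, 34.1, 14.1 and 15.2 5′ETS counts per 10000 18S counts, and the 3 controls had 2.22, 0.763 and 1.79. For ITS1 the cKO eggs had 4.55, 7.90, 2.18 and 3.06, and the controls 0.185, 0.169 and 0.168. The groups did not overlap for either spacer. The control ITS1 values come from 3 or 4 reads each, so their closeness is not a measure of precision: the 95% interval of the lowest was 0.057 to 0.493.

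The MII genotype difference was 3.81 (SE 0.55) on the log2 scale for the 5′ETS and 4.16 (SE 0.40) for ITS1. The exact permutation p was 0.0571 for each, which is the smallest that 4 against 3 eggs allow (adjusted p = 0.158). The edgeR test gave 3.82 and 4.61 with an adjusted p of 4.01e-06 for each. Genotype and female cannot be told apart here, since all control eggs came from V1145. The genotype differences at GV and MII were compared by the interaction term in edgeR. It was -1.62 for the 5′ETS (adjusted p = 0.342) and 0.58 for ITS1 (adjusted p = 0.680), so a difference between the stages was not shown. Without V1131 the 5′ETS term was 0.13, and without V1166 the ITS1 term was -0.17.

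Between the stages, cKO eggs at MII had lower median spacer levels than cKO oocytes at GV, 20.9 against 347 for the 5′ETS and 3.81 against 28.4 for ITS1, per 10000 18S counts. Their ranges overlapped because the V1126 oocytes reached down to 4.15 and 1.07. The log2 differences, MII minus GV, were -2.53 (SE 1.01) and -2.06 (SE 0.81), each with an exact permutation p of 0.0788 (adjusted p = 0.158). EdgeR gave -3.42 and -2.50 (adjusted p = 0.0188 and 0.0216), but neither was called by edgeR without V1131 (-1.68 and -1.62, adjusted p = 0.216 and 0.211), V1166 (0.0656 for both) or V1167 (0.143 and 0.145). The edgeR calls of both were also lost without egg 1 or egg 2 of V1167 (adjusted p of 0.0581 to 0.0658), and that of ITS1 without egg 1 of V1166 (adjusted p = 0.0532). Without V1131 the log2 differences used in the exact test were -0.40 and -0.77. Control oocytes had low levels at both stages, with medians of 3.33 and 1.79 for the 5′ETS and 0.538 and 0.169 for ITS1. The control stage differences were -1.22 (SE 0.71) and -1.71 (SE 0.68), with exact permutation p of 0.242 and 0.170. For these edgeR gave -1.80 and -3.09 (adjusted p = 0.127 and 0.084). Without V1132 it called that of ITS1 (-3.29, edgeR, adjusted p = 0.027). Stage and female cannot be told apart, since no female gave oocytes at both stages.

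Read density allows the spacers to be compared with each other and with mature rRNA, as counts per kilobase relative to 18S. In GV cKO oocytes the median density of the 5′ETS was 1.62% of that of 18S, and that of ITS1 was 0.530%. In GV controls they were 0.0156% and 0.0101%. At MII they were 0.0974% and 0.0712% in cKO and 0.00835% and 0.00317% in control eggs. Even where highest, the spacers were a small part of the library: the 5′ETS took 1.16% of all segment counts and ITS1 0.113% in the highest GV cKO oocyte for each.

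**Figure D2:**
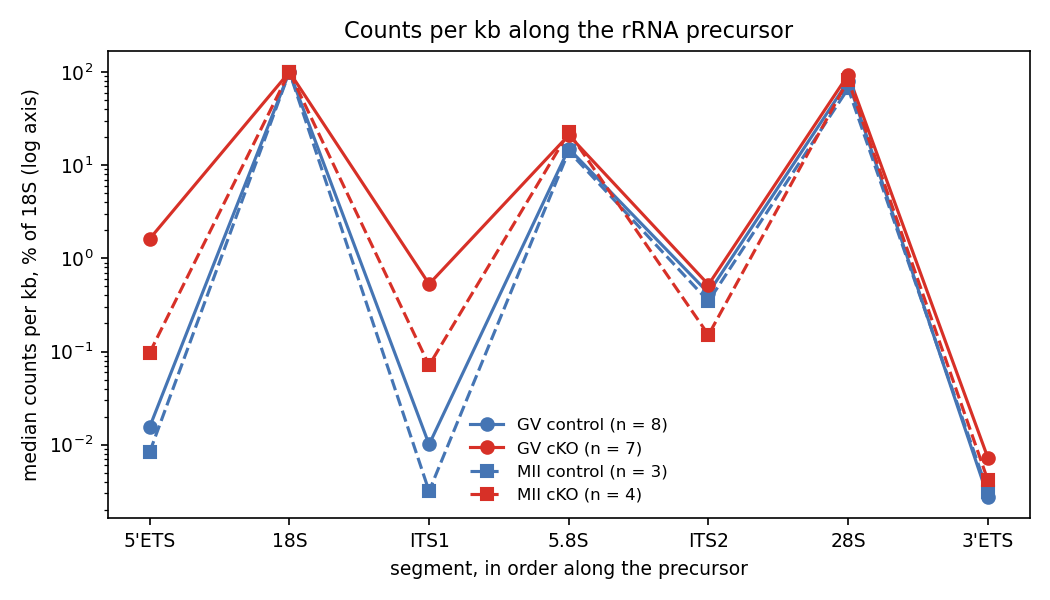
Median counts per kilobase of the 7 segments in their order along the precursor, as percent of 18S on a log axis, for the 4 groups. The 5′ETS and ITS1 separate the genotypes (1.62% against 0.0156% for the 5′ETS at GV), while ITS2 does not do so in that direction.

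The ratio of 5′ETS to ITS1 counts shows whether the 2 spacers moved in step. In GV cKO oocytes it was 10.7, 14.2, 13.8 and 7.69 in V1131, and 3.05, 3.88 and 5.99 in V1126. In GV controls it was 9.50, 2.45, 6.0 and 8.0 in V1132, and 3.63, 3.92, 7.32 and 3.96 in V1133. The groups overlapped, and 3 of 7 cKO oocytes, all of V1131, exceeded every control. The log2 difference was 0.60 (SE 0.40, exact permutation p = 0.143, adjusted p = 0.246). Without V1131 it was -0.23, and without V1126 it was 1.23 (adjusted exact p = 0.0323), so the ratio differed in direction between the cKO females set against the same controls.

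At MII the ratio was 5.84, 4.32, 6.46 and 4.95 in cKO and 12, 4.50 and 10.7 in control eggs. The ranges overlapped, and the log2 difference was -0.35 (SE 0.44, exact permutation p = 0.343). EdgeR on the counts gave -0.74 (adjusted p = 0.0988), and without oocyte 3 of V1145, the control at 4.50, it called the ratio lower in cKO eggs, at -1.08 (edgeR, adjusted p = 0.0348). With 10 added to each count in place of 1 it turned to 0.72. Control ratios were loosely measured at 3 or 4 ITS1 reads, with 95% intervals as wide as 3.47 to 32.8 for the egg at 10.7. Per kilobase, the median ratio was 1.92 in GV cKO, 1.2 in GV control, 1.35 in MII cKO and 2.66 in MII control oocytes. The 5′ETS was thus covered more densely than ITS1 at the median of each group.

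**Figure D3:**
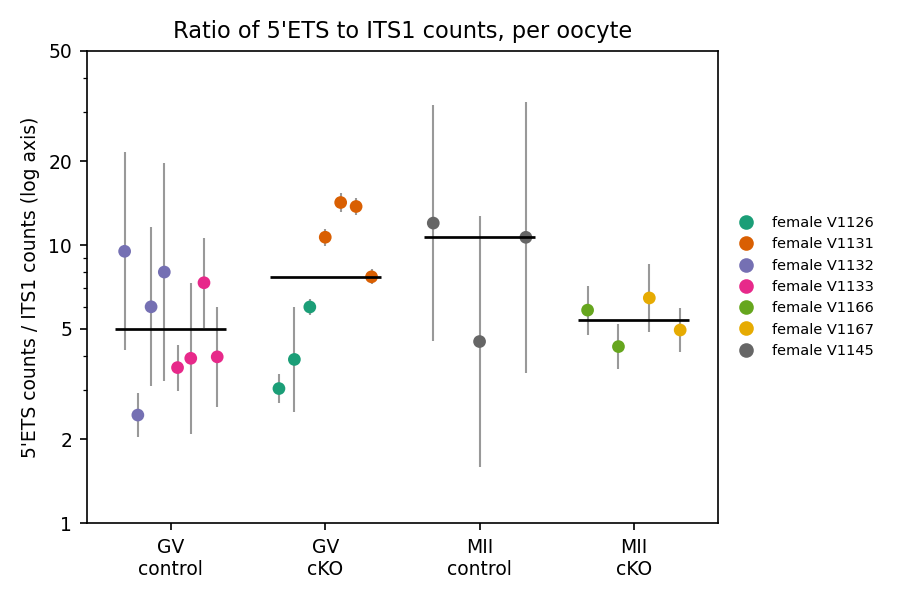
Ratio of 5′ETS to ITS1 counts per oocyte on a log axis, coloured by female, with 95% intervals from the counts and the group median as a bar. Values of V1131 (7.69 to 14.2) lie above those of V1126 (3.05 to 5.99), and the intervals of control oocytes are wide.

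ITS2, the spacer between 5.8S and 28S, did not share the genotype differences of the 5′ETS and ITS1. ITS2 and 28S were chosen for comparison after their values were seen, so their differences are described with no test. ITS2 had 21.2 to 58.8 counts per 10000 18S counts in GV cKO and 21.6 to 37.3 in GV control oocytes (log2 difference 0.31, SE 0.24). At MII it had 6.06 to 11.2 in cKO and 19.4 to 25.4 in control eggs. There the cKO eggs lay below all controls, opposite to the 5′ETS and ITS1 (log2 difference -1.35, SE 0.26). ITS2 per 18S was also lower in MII than in GV cKO oocytes, by a log2 difference of -1.99 (SE 0.32), and the ranges did not overlap. With female means it was -1.94. The 3′ETS had at most 0.945 counts per 10000 18S counts in any oocyte.

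With ITS2 in place of 18S as denominator, the same 5′ETS and ITS1 counts gave differences in the same direction, of similar size at GV and larger at MII, again with no test. At GV the 5′ETS to ITS2 ratio differed by 4.82 (SE 0.94) and the ITS1 to ITS2 ratio by 4.21 (SE 0.84) on the log2 scale (n = 7 and 8). At MII these differences were 5.16 (SE 0.39) and 5.52 (SE 0.26). The 28S to 18S ratio was 1.84 to 3.98 in MII cKO and 1.5 to 1.78 in MII control eggs, without overlap (log2 difference 0.52, SE 0.27). The 3.98 came from egg 2 of V1166, which had the lowest 18S count of its group, 168261, and the highest spacers per 18S. The remaining cKO eggs had 2.22, 1.84 and 1.92. Spacer differences at MII with 28S as the denominator were 3.29 and 3.64. Thus the denominator changed their size at MII but not their direction.

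Across oocytes of a group the 5′ETS and ITS1 varied together. Over the 7 GV cKO oocytes, log2 5′ETS per 18S and log2 ITS1 per 18S had r = 0.97 and rho = 0.68. Over the 8 GV controls they had r = 0.96 and rho = 0.90. The points share the 18S denominator and their females. ITS2 with the same denominator also varied with the 5′ETS, at r = 0.71 and rho = 0.68 in cKO and r = 0.79 and rho = 0.88 in control oocytes. ITS1 and ITS2 had r = 0.74 and rho = 1 in cKO and r = 0.71 and rho = 0.83 in control oocytes. By rank, ITS2 thus ordered the oocytes about as the 2 other spacers did, over a narrower range. The 5′ETS had r = 0.37 and 0.29 with 28S.

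A second readout of the 5′ETS position came from Gm26917 in the RiboMinus libraries. Its 7 GV cKO values were 3409, 4446, 4623 and 3217 CPM in V1131 and 448, 26.1 and 2046 CPM in V1126. The 8 GV controls had 24.4, 128, 16.4 and 9.4 CPM in V1132 and 254, 16.4, 71.2 and 49.6 CPM in V1133. The low cKO oocyte was again oocyte 3 of V1126, and the highest control was again oocyte 1 of V1133. Gm26917 rose by 5.18 (SE 0.89) on the log2 scale at GV (edgeR, adjusted p = 0.000878) and by 3.23 (SE 0.49) at MII (edgeR, adjusted p = 0.000953). Without V1131 the GV difference was 3.57 (edgeR, adjusted p = 0.0698).

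Of 5289 genes with an average log2 CPM of at least 5, Gm26917 was the one whose log2 CPM was most like log2 5′ETS per 18S over the 15 GV oocytes. Its r was 0.99 after each genotype's mean was subtracted. Next came Fmr1, the gene of an RNA-binding protein that represses translation (r = 0.95), and Trmt10c, the gene of a mitochondrial tRNA methyltransferase and RNase P subunit (r = 0.94). These r values describe the 15 oocytes, which share their females. Within the groups Gm26917 had r = 0.99 in both cKO and control oocytes. Gm42418, most of whose bases lie in the 18S copy, did not follow the spacers. It had a log2 difference of -0.23 at GV (edgeR, adjusted p = 0.263) and fell by 0.93 at MII (edgeR, adjusted p = 0.0096).

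**Figure D4:**
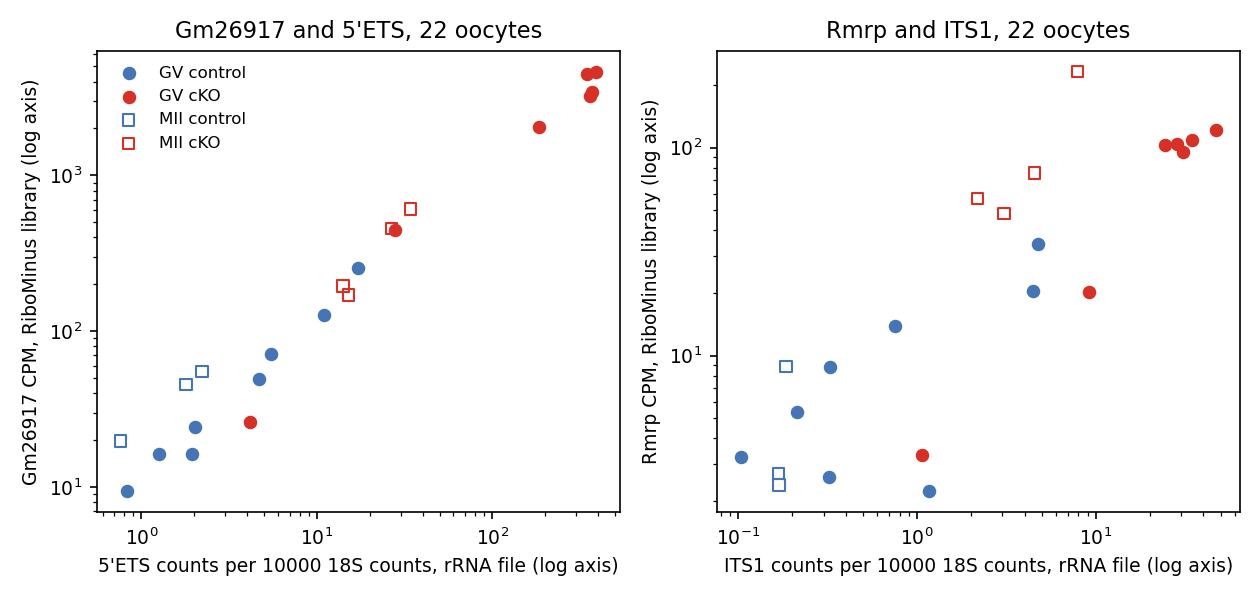
RiboMinus CPM against rRNA-file counts per 10000 18S counts in 22 oocytes, both axes log: Gm26917 against the 5′ETS (left) and Rmrp, under the gene ID of the 271-base transcript, against ITS1 (right). Gm26917 runs from 9.4 to 4623 CPM along the 5′ETS, and 1 GV cKO oocyte sits among the controls in both plots.

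Genes of rRNA processing were read from the same RiboMinus libraries in 5 lists: exosome and cofactors, small-subunit processome, ITS1 cleavage, RNA polymerase I, and guide RNAs. Of 112 gene IDs in the lists, 103 passed the filter on low counts. At GV 22 of these were higher and 23 lower in cKO oocytes at an adjusted p under 0.05 (edgeR), or 43.7%. Over all 15347 genes tested, 37.6% were called, 21.2% higher and 16.5% lower, so the lists' share lay near the background. The median log2 difference of the lists was 0.053 against 0.00085 for all genes. The calls depended on the females, in the lists as over all genes. Without V1131, 1 list ID was called and 103 genes in all. Without V1132 it was 17 and 2657, without V1133 15 and 1407, and without V1126 58 and 8586. With counts summed per female 1 list ID and 3 genes in all were called.

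At MII 7 list IDs were higher and 18 lower of 103, or 24.3%. Over all 16675 genes tested, 23.7% were called, 13.9% higher and 9.78% lower, and their median log2 difference was 0.13 against -0.13 for the lists. Without oocyte 4 of V1145 the lists' count was 15 and that of all genes 2439, against 3949.

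Of the exosome and its cofactors, 2 of 17 were higher and 6 lower at GV, or 47.1%, against 37.6% of all genes. After Exosc10, the largest decreases were in Mtrex, the exosome's helicase, which fell by 1.01 (SE 0.22, edgeR, adjusted p = 0.0034). Exosc8, a ring subunit of the exosome core, fell by 0.62. Wdr74, which works with MTREX in pre-rRNA processing, rose by 0.90. Exosc6, also a ring subunit and too low for the rule on named genes, was added after its values were seen as the other member called higher. It had 8.95 ± 3.71 CPM (SD, n = 7) in cKO and 2.59 ± 0.594 (SD, n = 8) in control oocytes, and rose by 1.78 at GV (SE 0.27, edgeR, adjusted p = 0.000584) and by 3.09 at MII (SE 0.90, edgeR, adjusted p = 0.0254). The mean level of Mtrex was 58.2 ± 28.1 CPM (SD, n = 7) in cKO and 116.2 ± 7.84 (SD, n = 8) in control oocytes. Of these 5 genes, Exosc10 alone was called by edgeR without V1131 and with counts summed per female, where Mtrex had differences of -0.64 and -1.09.

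Of the small-subunit processome, which acts on the 5′ETS, 8 of 40 were higher and 10 lower at GV. The share called was 45%, against 37.6% of all genes. Nol11, needed for rRNA transcription and early cleavage, rose by 1.53 on the log2 scale, Imp3, of the U3 particle, by 1.47, and Pwp2, of the UTPB complex, by 0.97. Utp14a fell by 0.93, Ngdn, a small-subunit processome factor, by 0.55, and Utp15, of the UTPA complex, by 0.54. Of these 6 genes, Pwp2 had the highest mean level, 177 ± 52.2 CPM (SD, n = 7) in cKO and 90.5 ± 10.5 (SD, n = 8) in control oocytes. Each of these 6 calls was lost without V1131, where the differences were 0.73, 1.02 and 0.50 for the genes that rose and -0.38, -0.36 and -0.24 for those that fell.

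Of the genes of ITS1 cleavage and 18S 3′ end maturation, 4 of 20 were higher and 4 lower at GV. The share called was 40%, near the 37.6% of all genes. Esf1, a nucleolar factor of 18S synthesis, rose by 1.56, Tsr1, a late small-subunit assembly factor, by 1.18, and Rrp36, a nucleolar factor of early precursor cleavage, by 0.70. Pop1 and Pop4, protein subunits of RNase MRP and RNase P, fell by 0.64 and 0.42. Nol12, a nucleolar RNA-binding protein of ITS1 processing, fell by 0.47. These 6 calls too were lost without V1131, where Esf1 differed by 0.70 and Tsr1 by 0.90. The call of Rrp36 was lost on leaving out any 1 of the 4 GV females, with differences of 0.51 to 0.91, the highest without V1131. The differences of Pop1, Pop4 and Nol12 were then -0.29, -0.29 and -0.27. At MII 2 of the 20 were higher and 6 lower, or 40%, against 23.7% of all genes.

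Of RNA polymerase I and its factors, 4 of 15 were higher and 3 lower at GV, or 46.7%, against 37.6% of all genes. Taf1c, a subunit of the promoter selectivity factor SL1, rose by 3.34 and Ubtf, the upstream binding factor of rDNA, by 2.30. Twistnb, a polymerase subunit, rose by 0.92. The SL1 subunits Taf1b and Taf1a fell by 0.67 and 0.64, and Rrn3, the polymerase I initiation factor, by 0.40. Mean levels were 120 ± 73.9 CPM (SD, n = 7) in cKO and 24.2 ± 10.6 (SD, n = 8) in control oocytes for Ubtf, and 21.8 ± 16.4 and 2.12 ± 1.14 CPM for Taf1c. Without V1131 the difference was 1.12 for Ubtf and 1.62 for Taf1c (edgeR, adjusted p = 0.193 and 0.132), and the other 4 calls were lost as well. At MII 3 of the 15 were lower, or 20%, against 23.7% of all genes called.

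**Figure D5:**
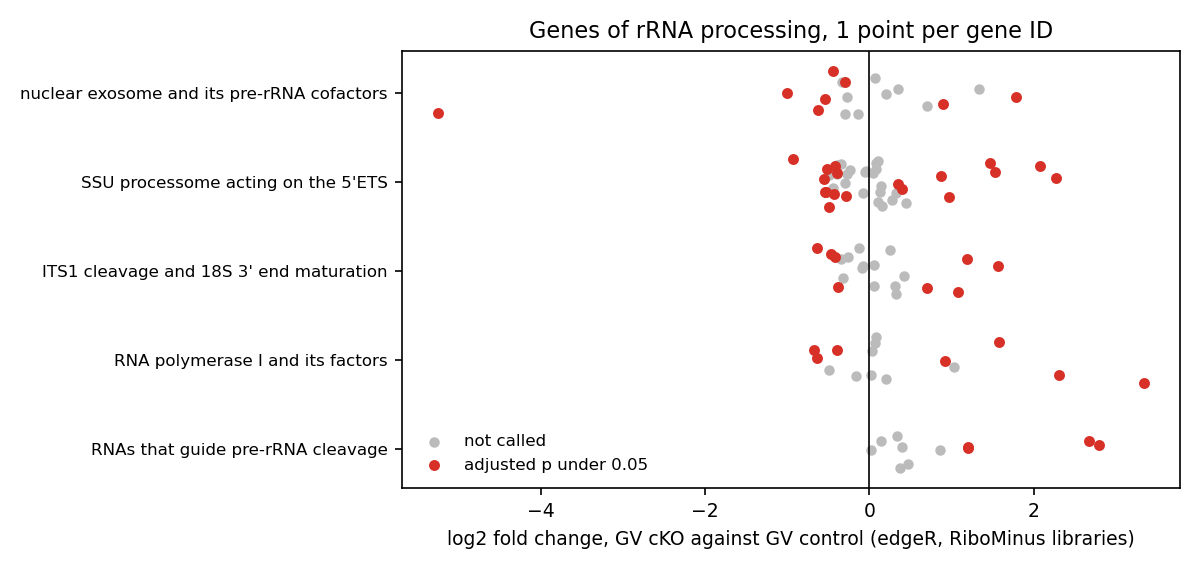
Log2 fold change of RiboMinus counts in GV cKO against GV control oocytes (edgeR), 1 point per gene ID in the 5 lists of rRNA processing genes, red where the adjusted p was under 0.05. Points lie on both sides of 0 in the 4 protein-gene lists, with 22 IDs higher and 23 lower over all 5 lists, and Exosc10 is the point at -5.25.

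Of the guide RNAs, 4 of 11 tested IDs were higher at GV, but they stand for 2 RNAs, each under 2 gene IDs. The share called was 36.4%, near the 37.6% of all genes. At MII 2 of the 11 were higher, or 18.2%, against 23.7% of all genes called. Rmrp, the RNA subunit of RNase MRP shown above, rose by 2.79 (SE 0.66) and 2.68 (SE 0.68) under its 2 IDs at GV (edgeR, adjusted p = 0.00499 and 0.00722). At MII it rose by 4.55 and 4.45 (edgeR, adjusted p = 0.000799 and 0.000299). Rnu3a, a U3 RNA gene, rose by 1.2 on the log2 scale at GV (edgeR, adjusted p = 0.0396) and differed by 0.02 at MII (edgeR, adjusted p = 0.980). The 8 IDs of Rnu3b1 to Rnu3b4 had 0 counts in all GV oocytes. The 10 U3 transcripts share 2 distinct sequences over their first 70 bases, so reads may not be assigned to 1 copy.

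Rmrp varied along with the spacers among the cKO oocytes. Under the gene ID of the 271-base transcript its values were 109, 104, 105 and 122 CPM in V1131 and 20.1, 3.3 and 95 CPM in V1126. GV controls had 5.4, 20.4, 8.8 and 3.3 CPM in V1132 and 34.5, 2.6, 13.9 and 2.2 CPM in V1133. Oocytes 2 and 3 of V1126 lay within the control range, so 2 of 7 cKO oocytes did, against 1 of 7 for each spacer. At MII the cKO eggs had 75.7, 232, 57.0 and 48.1 CPM and the controls 8.8, 2.4 and 2.7 CPM, without overlap. Within GV groups Rmrp had r = 0.99 and rho = 0.89 with ITS1 in 7 cKO oocytes. In 8 controls it had r = 0.70 and rho = 0.57. With the 5′ETS it had r = 0.99 and rho = 0.86 in cKO oocytes, and r = 0.79 and rho = 0.71 in controls. These points share their females. Without V1131 the GV difference of Rmrp was 1.80 and 1.66 under its 2 IDs (edgeR, adjusted p = 0.266 and 0.324), and that of Rnu3a was 0.33.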

How the data were processed

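The rRNA files hold raw counts per precursor segment and the RiboMinus files raw counts per gene, as deposited. Per the submitters' processing notes, the authors used cutadapt 2.5, FastQC 0.11.8, STAR 2.7.2a, SAMtools 1.9, HTSeq 0.9.1, R 3.5.1, DESeq2 1.24.0 and mm10, with no role or order given. The rDNA reference, strand setting and treatment of multi-mapped reads were not given in the sources used here. Reads with no feature were 4.88% to 11.3% of the rRNA files and 8.34% to 12.4% of the RiboMinus files, and stayed out of all totals. RiboMinus gene totals were 12319700 to 62675800 per oocyte.

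Spacers were expressed per 18S count within each oocyte, and log2 ratios used a pseudocount of 1. Contrasts used two-sided exact permutation tests over oocytes (scipy 1.17.1), adjusted by Benjamini-Hochberg over 12 tests of 3 measures and 4 contrasts. Interactions and RiboMinus genes used the edgeR 4.0.16 quasi-likelihood test in R 4.3.3 (filterByExpr, TMM, adjusted over all genes, called under 0.05). CPM (counts scaled to 1000000 per library) used TMM over all 22 libraries. In simulated GV counts over 15731 genes, edgeR recovered 100% of 200 genes changed 4-fold, with 11 false calls. The changed genes were drawn from those above a set mean count. Oocytes were simulated independently with no female effect, so the simulation does not measure the error rate of calls that depend on the females. Alternatives were DESeq2 1.42.0, other pseudocounts, denominators, filters and size factors, female means or sums, and leaving out females or MII eggs.

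Segments and gene lists were chosen with earlier results of these data known. Named genes are Exosc10, the 3 largest called changes each way per list at GV (average log2 CPM of at least 3), and the 3 genes most like the 5′ETS. Gm42418 was added for its place beside Gm26917. GENCODE M21 paired 55394 of 55573 gene IDs with a symbol. The polyA libraries were not used here.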

Additional observations from a re-analysis of the deposited data

Results flagged for a closer look

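In GV cKO oocyte 3 of female V1126, the log2 ratio of ITS1 to ITS2 was -4.26, far below the other 6 oocytes of its group for that group's range. The oocyte had 25 ITS1 and 496 ITS2 counts. Its ITS2 level, 21.2 per 10000 18S counts, was the lowest of its group by a small margin, while its ITS1 level, 1.07, lay far from the next, 9.13. It was the 1 value set apart in 21 sets of 4, 7 or 8 oocytes examined, a rate that chance alone can give.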

How the results depend on the processing

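No paired analysis was possible because the compared groups share no female, and oocyte numbers only name an oocyte within a female. The genotype and stage differences of the 5′ETS and ITS1 per 18S kept their direction under every alternative run. At GV the exact-test calls were lost with female means (4.86 and 4.36), and leaving out 1 female gave 3.00 to 6.72 for the 5′ETS and 3.22 to 5.49 for ITS1, called by the exact test only without V1126. EdgeR kept both calls without V1126, V1132 or V1133, and that of the 5′ETS without V1131. At MII, edgeR (3.82 and 4.61) and DESeq2 (3.83 and 4.66) called both, as they did for the cKO stage difference (both -3.42 and -2.50), where edgeR called neither without V1131, V1166, V1167 or either egg of V1167. DESeq2 also called the control stage difference of ITS1 (-3.12), and edgeR called it only without V1132 (-3.29). The 5′ETS to ITS1 ratio turned in direction with a pseudocount of 10 for the MII genotype (0.72) and the control stage (-0.20). Leaving out 1 female, its GV genotype difference ran from -0.23 to 1.23, and leaving out 1 female or MII egg its cKO stage difference ran from -1.09 to 0.37. EdgeR called the latter only without V1126 (-1.11, adjusted p = 0.00536). The interaction terms then ran from -2.24 to 0.13 for the 5′ETS and from -0.17 to 1.46 for ITS1. The cause of these changes was not tested. ITS1 to ITS2 at the cKO stage contrast was 0.035 with female means, against -0.08. Called IDs in the processing lists numbered 45 at GV and 1 with counts summed per female, 1 to 58 leaving out a female, and at MII 25, or 15 to 28 leaving out a female or egg. For single named genes, calls were lost mostly without a GV female or with counts summed per female. Control ITS1 rests on as few as 3 reads, so its ratio is the least precise measure.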
